A study of Homo sapiens with 8 samples.

Results

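The genes described here are 10 heat shock chaperones and co-chaperones whose transcription is driven by heat shock factor 1 (HSF1): HSPA1A, HSPA1B, HSPA8, HSPH1, HSP90AA1, DNAJB1, BAG3, HSPB1, HSPD1 and HSPE1. They were picked by gene name, and all 10 were found once each among the 62649 genes of the deposited table. Their transcripts were measured in spheroids of AsPC-1 and PANC-1, established human lines of pancreatic cancer (2 lines in all), grown for 3 days in medium thickened with methylcellulose and then treated for 24 h. Each line had 1 library for each of 4 treatments: vehicle, 10 µM roseoflavin, 1 nM trametinib, and both compounds together (the combination). The labels give the genotype of every library as WT. Roseoflavin is a bacterial antibiotic that resembles riboflavin, and trametinib inhibits the MEK kinases that activate ERK. No group had a replicate, so the lines and the other compound stood in for replication in every test, and the p-values measure the spread between these 8 libraries.

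Chaperones bind unfolded proteins and help them to fold, and cells make more of them when proteins misfold. HSF1 is held inactive by chaperones in unstressed cells, and when unfolded proteins draw the chaperones away it forms trimers that bind heat shock elements in the promoters of chaperone genes. Many cancer cells keep HSF1 partly active, and its targets are known for supporting oncogenic kinases and other unstable proteins. Among the 10 genes, HSPA1A and HSPA1B encode the stress-inducible form of HSP70 and HSPA8 the constitutive form. HSPH1 (HSP110), DNAJB1 (an HSP40) and BAG3 assist HSP70, HSP90AA1 encodes inducible HSP90, HSPB1 encodes the small heat shock protein HSP27, and HSPD1 and HSPE1 encode the HSP60 and HSP10 chaperonin of mitochondria.

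Values were in TPM, which sum to 1000000 in every library, so read depth is not known. In AsPC-1, 15280 to 15580 genes were at 1 TPM or above, and in PANC-1 17105 to 17201. Mitochondrial-genome transcripts made up 41.2% to 44.1% of the TPM in AsPC-1, with the highest share in the roseoflavin library, and 22.8% to 25.6% in PANC-1, with the highest share in the vehicle library. Results that this share touches are given also on TPM rescaled without those transcripts. The epithelial marker EPCAM was at 1224 to 1485 TPM in AsPC-1 and at 14.5 to 16.8 TPM in PANC-1. VIM was at 660 to 816 TPM and 3132 to 3391 TPM in the same order. Of 5 leukocyte markers, PTPRC did not exceed 0.019 TPM, while 2 reached 1 TPM in 2 libraries, LYZ and CD68. LYZ averaged 954 TPM over the 8 libraries and CD68 120 TPM. LYZ was far higher in AsPC-1 (PANC-1 minus AsPC-1 of log2(TPM + 1) was -10.8). Of 5 fibroblast markers, 2 reached 1 TPM in 2 libraries, and of 4 endothelial markers 0 did. The 2 differed in opposite directions between the lines, COL1A1 by 6.59 and LUM by -6.96 on the same scale. The labels name cells of 1 line for each library and no other cell type. In bulk RNA of this kind, fewer cells of a type and less RNA per cell cannot be told apart.

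Heat shock elements are built from inverted repeats of the bases GAA. RefSeq promoter windows (GRCh38.p14, from 250 bases before to 50 bases after a gene's start) were found for all 10 genes, 14 windows in all, since HSPD1, HSP90AA1 and DNAJB1 have more than 1 start. They were searched on both strands for 2 adjoining units, GAANNTTC or TTCNNGAA, each of which is its own reverse complement. They were also searched for 3 units, GAANNTTC followed directly by NNGAA, or the reverse complement of that, a longer match that always contains both of the shorter ones. The 2-unit motifs occurred in 8 of the 14 windows and in 7 of the 10 genes, beside 13.5% of all 35116 RefSeq windows. The 3-unit motif occurred in 3 of the 14 windows, those of HSPD1, HSPA8 and HSP90AA1, beside 0.49% of all windows. The stretches upstream of the start that hold these matches are shown because they are the letters that HSF1 is known to read. Each runs 5′ to 3′ on the strand of its gene, with the 2-unit matches in capitals.
HSPA1A, chr6:31815425-31815456, plus strand: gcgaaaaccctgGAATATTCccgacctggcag
HSPA1B, chr6:31827621-31827652, plus strand: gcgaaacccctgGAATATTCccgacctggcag
HSPA8, chr11:123062342-123062378, minus strand: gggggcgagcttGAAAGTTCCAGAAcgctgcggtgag
HSPA8, chr11:123062167-123062203, minus strand: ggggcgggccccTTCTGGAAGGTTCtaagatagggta
HSP90AA1, chr14:102087093-102087144, minus strand: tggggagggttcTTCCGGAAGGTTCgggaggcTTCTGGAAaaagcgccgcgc
DNAJB1, chr19:14518425-14518486, minus strand: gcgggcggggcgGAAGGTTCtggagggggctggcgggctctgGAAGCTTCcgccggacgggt
HSPB1, chr7:76302479-76302510, plus strand: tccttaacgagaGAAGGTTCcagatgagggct
HSPD1, chr2:197500056-197500090, minus strand: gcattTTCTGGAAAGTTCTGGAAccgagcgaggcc

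HSPA1A and HSPA1B carry the same match, and the shown stretch begins 118 bases before the start of HSPA1A and 117 bases before that of HSPA1B. HSPA8 has 2 matches of 3 units, in stretches that begin 242 and 67 bases before its start. The HSPD1 stretch begins 250 bases before the more downstream of its 2 RefSeq starts, and lies within the gene as counted from the other. No match was found in the windows of BAG3, HSPH1 and HSPE1, which says only that these letters are not in those windows.

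All 10 genes were well expressed. In AsPC-1 their levels separated an abundant set from a scarce one, while in PANC-1 BAG3 lay between these sets. The lowest, BAG3 in AsPC-1, stood at the 81.9th percentile of the 19122 genes tested, and HSPA8 in PANC-1 stood at the 99.5th percentile. In AsPC-1 the order by mean TPM, which is scaled per transcript length, was HSPB1 (468 to 598 TPM over the 4 libraries), HSPA8 (476 to 516), HSP90AA1 (319 to 345), HSPE1 (270 to 301), HSPD1 (260 to 265), HSPA1A (52.4 to 66.9), HSPA1B (40.1 to 47.3), HSPH1 (34.0 to 36.8), DNAJB1 (31.8 to 34.6) and BAG3 (29.4 to 32.6). The ranges of HSPB1 and HSPA8 overlapped, as did those of HSPH1 and DNAJB1 and those of DNAJB1 and BAG3, while the other neighbours in this order did not overlap. In PANC-1 the order was HSPA8 (841 to 919 TPM), HSP90AA1 (454 to 505), HSPB1 (350 to 400), HSPD1 (278 to 292), HSPE1 (262 to 296), BAG3 (157 to 178), HSPA1A (78.2 to 92.2), DNAJB1 (59.0 to 63.8), HSPA1B (54.9 to 62.3) and HSPH1 (51.0 to 59.0). There the ranges of HSPD1 and HSPE1, of DNAJB1 and HSPA1B, and of HSPA1B and HSPH1 overlapped. The most visible change of order was that of BAG3, which was last of the 10 in AsPC-1 and the sixth in PANC-1.

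**Figure D1:**
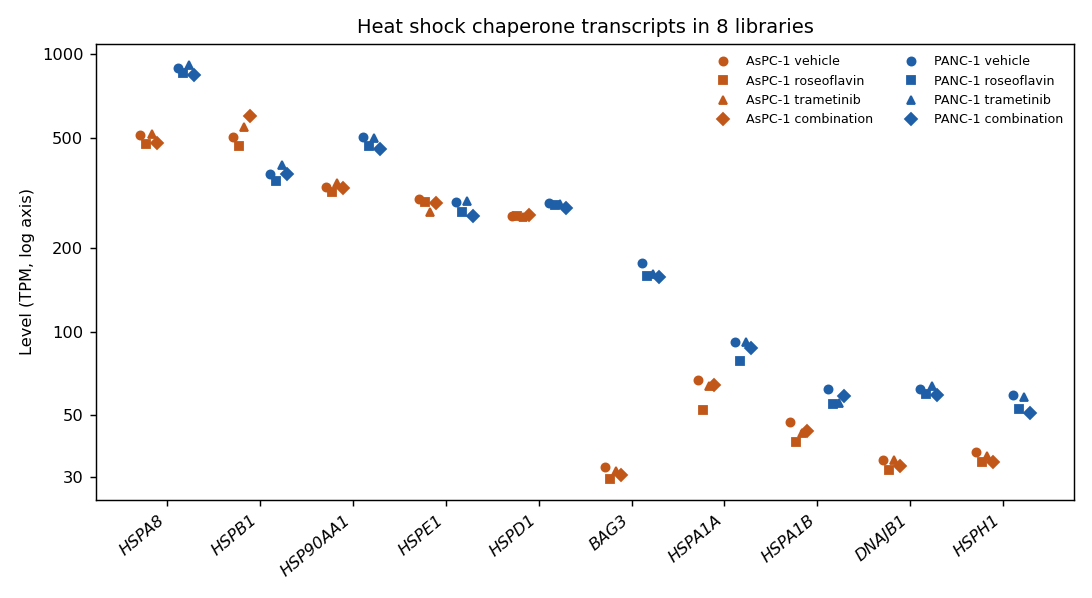
Level of each gene in TPM (log axis) in the 8 libraries, with AsPC-1 in orange, PANC-1 in blue and 1 symbol per treatment, each point being 1 library. The lines lie far apart for BAG3 (29.4 to 32.6 TPM in AsPC-1, 157 to 178 TPM in PANC-1), while the treatments within a line lie close together.

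Some of these levels may share reads with other genes. Of the 100-base stretches in the annotated transcripts of HSPA1A (GENCODE 29), 67.3% also occur in HSPA1B, so the split of reads between this near-identical pair is uncertain. HSPE1 overlaps the readthrough gene HSPE1-MOB4 on the same strand of chromosome 2, and that row was listed at 637 TPM in the AsPC-1 vehicle library beside 301 TPM for HSPE1. Of the 100-base stretches in the annotated transcripts of HSPE1, 4.35% also occur in HSPE1-MOB4. How the counting divided reads between the rows is not given in the sources used here. In GENCODE 29 on GRCh38, the build named in the submitters' notes as hg38, BAG3 (ENSG00000151929) lies at chr10:119651370-119677819 on the plus strand and HSPA8 (ENSG00000109971) at chr11:123057489-123063230 on the minus strand.

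The largest difference in these genes was between the lines. BAG3, which links HSP70 to small heat shock proteins and to selective autophagy, was at 32.6, 29.4, 31.6 and 30.4 TPM in AsPC-1 with vehicle, roseoflavin, trametinib and the combination, and at 178, 158, 162 and 157 TPM in PANC-1. The 4 libraries of each line did not overlap. BAG3 was 5.15-fold higher in PANC-1 on the log2(TPM + 1) scale (log2 difference 2.36, SE 0.038, limma adjusted p 1.59e-08, 4 libraries against 4). HSPA8 was at 512, 476, 516 and 479 TPM in AsPC-1 and at 895, 859, 919 and 841 TPM in PANC-1 in the same order of treatments, a log2 difference of 0.82 (SE 0.030, limma adjusted p 5.48e-07). DNAJB1, the HSP40 that delivers clients to HSP70, was at 34.4, 31.8, 34.6 and 33.0 TPM in AsPC-1 and at 62.4, 59.5, 63.8 and 59.0 TPM in PANC-1 (0.85, SE 0.031, limma adjusted p 5.21e-07).

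HSPB1 went the other way, with 503, 468, 547 and 598 TPM in AsPC-1 and 372, 350, 400 and 370 TPM in PANC-1. Its libraries did not overlap between the lines, and the log2 difference was -0.50 (SE 0.056, limma adjusted p 0.000153). In all, limma called 9 of the 10 genes (83.8% of all genes), 8 of them higher in PANC-1 and 1 lower, and in the same 9 the libraries of the lines did not overlap (79.2% of all genes). These counts are read against a background in which 62.3% of all 19122 genes were called higher in PANC-1 and 21.5% lower, with a median log2 difference of 0.55. The median over the 10 genes was 0.52. On TPM rescaled without mitochondrial-genome transcripts the median of all genes moved by -0.31, to 0.25, and the calls in the 10 genes became 5 higher and 3 lower, beside 49.7% and 30.9% of all genes. Quantile normalization moved the median of all genes by -0.51 and gave the same 5 and 3 genes, beside 41.6% and 37.5% of all genes.

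The 5 genes called higher on both scales were BAG3, HSPA8, DNAJB1, HSPH1 and HSP90AA1. On the rescaled TPM their log2 differences were 1.99, 0.43, 0.47, 0.26 and 0.15 in that order (limma adjusted p from 3.67e-08 to 0.0164). The inducible HSP70 genes did not keep their call: HSPA1A had 0.50 as deposited (limma adjusted p 0.000259) and 0.11 rescaled (adjusted p 0.0877, and 0.347 after quantile normalization), and HSPA1B had 0.40 (0.000782) and 0.017 (0.783, and 0.388 after quantile normalization). The mitochondrial chaperonin genes were called lower in PANC-1 on the rescaled TPM. HSPD1 had 0.13 as deposited (limma adjusted p 0.00695) and -0.26 rescaled (0.00065), and HSPE1 had -0.045 (0.455) and -0.43 (0.000488). HSPB1 was lower in PANC-1 on both scales, with -0.89 on the rescaled one (limma adjusted p 8.37e-06). The libraries of a line are the same cells under different treatments, so these tests do not cover the spread between separate cultures.

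**Figure D2:**
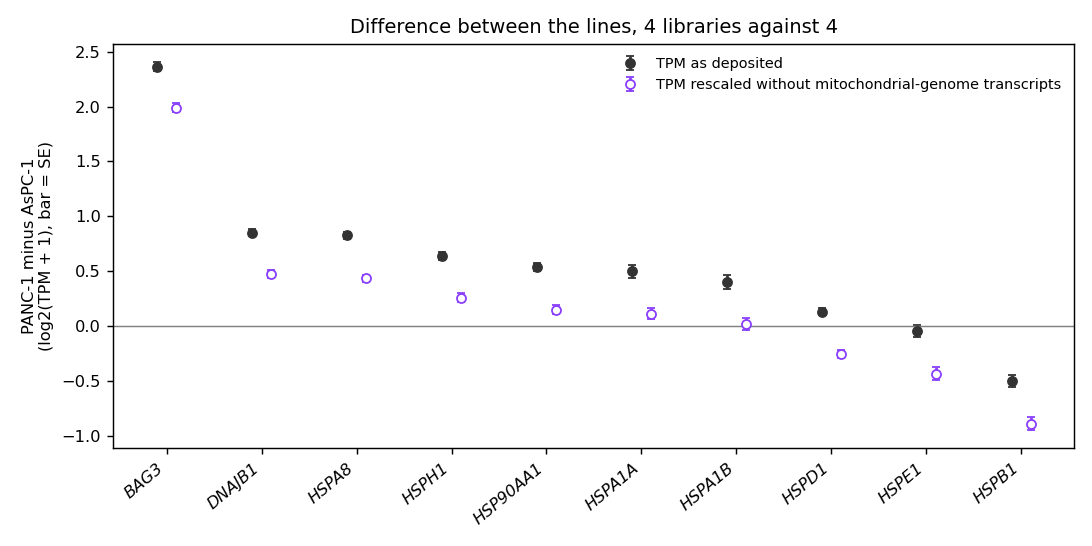
Log2 difference between the lines (PANC-1 minus AsPC-1 of log2(TPM + 1)) for each gene, with its SE, from 4 libraries against 4, on the TPM as deposited (filled) and on TPM rescaled without mitochondrial-genome transcripts (open). The open points are lower throughout, from 2.36 to 1.99 for BAG3, and HSPD1 and HSPE1 lie below 0 on the rescaled TPM.

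Roseoflavin came with lower levels of most of these genes, by small amounts. The model estimate over both lines was below 0 for all 10 genes, from -0.016 for HSPD1 to -0.16 for HSPA1A on the log2(TPM + 1) scale, with a median of -0.092. Of all genes tested, 57.8% had an estimate below 0 and the median was -0.017. None of the 10 genes passed the adjusted threshold of 0.05, as was so for every gene (0 of 19122, 0%). At an unadjusted p under 0.05, limma gave 6 of the 10 genes, all lower, beside 7.10% of all genes in either direction and 5.07% lower. These 6 were HSPA1A, HSPA8, HSPH1, HSP90AA1, DNAJB1 and BAG3. In simulated data with 19122 genes, 0% of changes of 0.1 or 0.2 and 73% of changes of 0.5 in the roseoflavin comparison were recovered at the adjusted threshold. The changes were planted in a small share of the genes, drawn from those above 10 TPM. Recovery depends on how many genes change, which is not known for the real libraries. The estimates for the 10 genes lie within the sizes that were not recovered in that setting.

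The count of 6 depended on single libraries. It was 3 without the AsPC-1 vehicle library, 2 without the AsPC-1 roseoflavin library, 2 without the PANC-1 vehicle library, 3 without the PANC-1 roseoflavin library, 3 without the PANC-1 trametinib library and 1 without the PANC-1 combination library. Over all 8 omissions the count ranged from 1 to 7. All 10 estimates remained below 0 without any 1 of the 8 libraries, and on TPM rescaled without mitochondrial-genome transcripts.

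**Figure D3:**
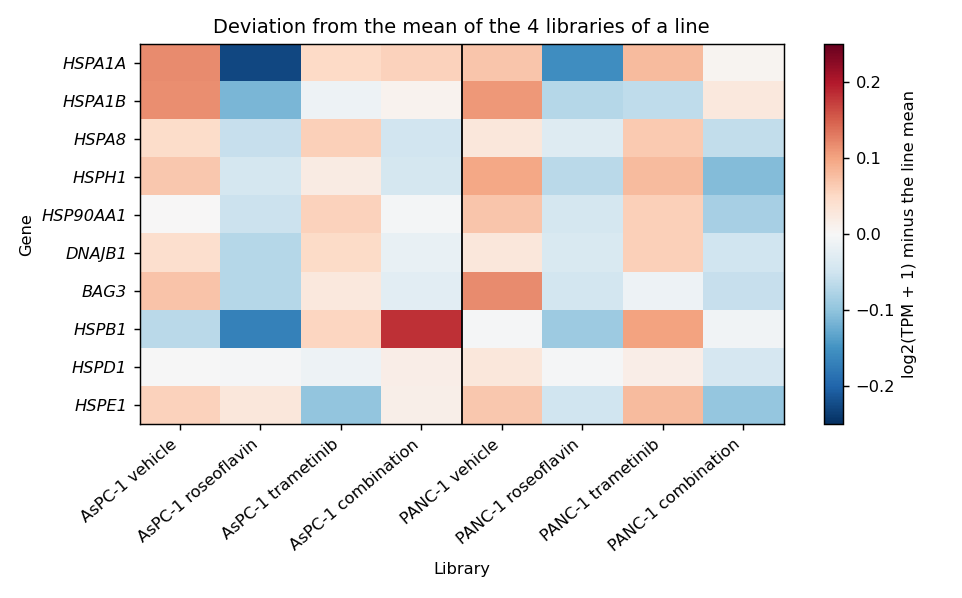
Heat map of log2(TPM + 1) minus the mean of the 4 libraries of the same line, with genes in rows and libraries in columns, red above and blue below the line mean. The roseoflavin columns are mostly blue in both lines (HSPA1A at -0.23 in the AsPC-1 one and -0.16 in the PANC-1 one), while HSPB1 is red in the AsPC-1 combination library (0.18).

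The genes for HSP110, constitutive HSP70, inducible HSP90, HSP40 and BAG3 were lower with roseoflavin in every matched comparison. HSPH1, a nucleotide exchange factor of HSP70, was at 36.8 TPM with vehicle and 34.0 TPM with roseoflavin in AsPC-1, where trametinib gave 35.5 TPM and the combination 34.0 TPM. In PANC-1 the values were 59.0 TPM with vehicle, 52.5 TPM with roseoflavin, 58.3 TPM with trametinib and 51.0 TPM with the combination. The estimate for HSPH1 was -0.13 (SE 0.036, limma p 0.00888, adjusted p 0.641). In PANC-1 both libraries with roseoflavin were lower than both without it, and in AsPC-1 likewise.

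HSPA8, whose values by library are given above, differed from its matched library without roseoflavin by between -4.06% and -8.42%. Its estimate was -0.10 (SE 0.030, limma p 0.0158, adjusted p 0.659), and in each line the libraries with and without roseoflavin did not overlap. HSP90AA1 was at 332, 319, 345 and 330 TPM in AsPC-1 with vehicle, roseoflavin, trametinib and the combination, and at 505, 467, 501 and 454 TPM in PANC-1. Its estimate was -0.093 (SE 0.035, limma p 0.0357, adjusted p 0.676), and the libraries with and without roseoflavin did not overlap within either line.

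DNAJB1 had an estimate of -0.090 (SE 0.031, limma p 0.0264, adjusted p 0.674). For BAG3 it was -0.10 (SE 0.038, limma p 0.0369, adjusted p 0.676). HSPA8, HSPH1, HSP90AA1, DNAJB1 and BAG3 were thus the 5 genes lower in 4 of 4 matched comparisons, beside 10.2% of all genes. On TPM rescaled without mitochondrial-genome transcripts, and after quantile normalization, 5 genes were again lower in 4 of 4, with HSPA1A in the place of HSP90AA1, beside 11.5% and 6.74% of all genes in that order.

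**Figure D4:**
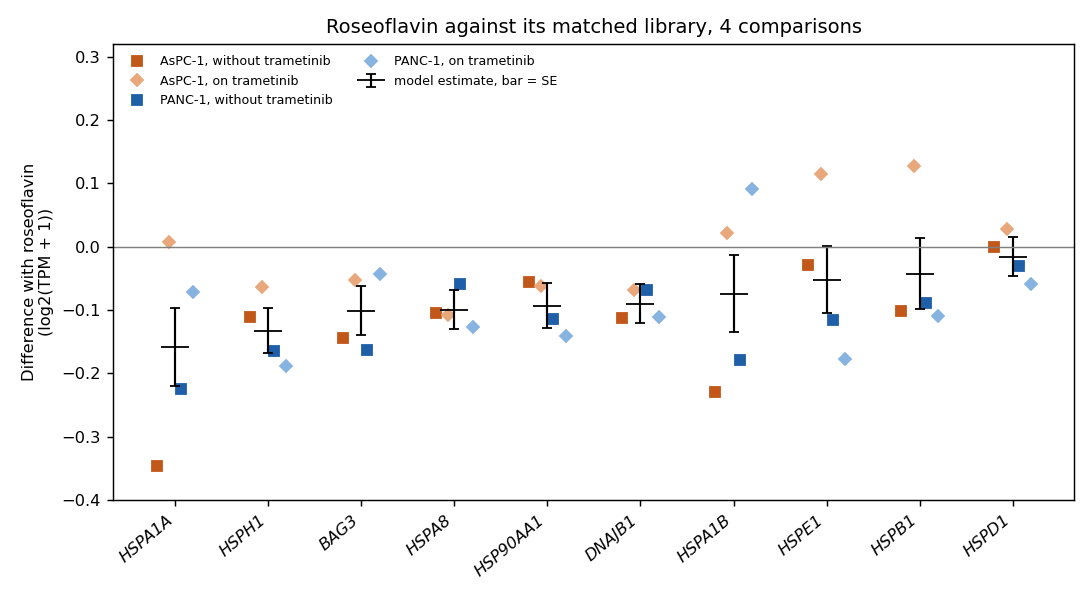
Difference in log2(TPM + 1) between each library with roseoflavin and its matched library without it, for both lines without trametinib (squares) and on top of it (diamonds), and the model estimate with its SE (black). All 10 estimates lie below 0, and all 4 points lie below 0 for HSPH1, BAG3, HSPA8, HSP90AA1 and DNAJB1.

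Among the 10 genes, inducible HSPA1A had the largest single difference with roseoflavin in each line, in both lines without trametinib. HSPA1A was at 66.9, 52.4, 63.8 and 64.1 TPM in AsPC-1 with vehicle, roseoflavin, trametinib and the combination, and at 91.6, 78.2, 92.2 and 87.6 TPM in PANC-1. The roseoflavin library was the lowest of its line in both lines, with changes of -21.7% and -14.6% from vehicle. HSPA1A in AsPC-1 was the only one of the 10 genes that was higher by 25% or lower by 20% after roseoflavin alone in that line, beside 14.8% of all genes, and none was in PANC-1, beside 12.7%. Rescaled without mitochondrial-genome transcripts, the AsPC-1 values of HSPA1A were 114 TPM with vehicle and 93.7 TPM with roseoflavin, and neither there nor after quantile normalization was any of the 10 genes past that limit. HSPA1B, its near-identical copy, was at 47.3, 40.1, 43.1 and 43.8 TPM in AsPC-1 and at 62.3, 54.9, 55.2 and 58.8 TPM in PANC-1, again with the roseoflavin library lowest in each line. The estimate over both lines was -0.16 for HSPA1A (SE 0.062, limma p 0.0401, adjusted p 0.677) and -0.074 for HSPA1B (SE 0.061, limma p 0.270, adjusted p 0.825).

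Whether roseoflavin acted differently on top of trametinib was tested as the interaction of the compounds. For HSPA1A it was 0.25 (SE 0.081, limma p 0.0239, adjusted p 1.00) and for HSPA1B 0.26 (SE 0.075, limma p 0.0159, adjusted p 1.00). These were the 2 of the 10 genes with an unadjusted p under 0.05, beside 2.80% of all genes, and 0 genes passed the adjusted threshold (0%). Because reads of the copies cannot be told apart with certainty, they are not independent of each other. For the other 8 genes the interaction lay between -0.035 and 0.11.

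The mitochondrial chaperonin and HSP27 genes had the estimates nearest to 0 over all 8 libraries, but these depended on single libraries. When each was left out in turn, the estimate ranged between -0.10 and -0.0086 for HSPB1, between -0.10 and -0.012 for HSPE1 and between -0.030 and -0.0011 for HSPD1, beside -0.098 to -0.082 for DNAJB1. HSPD1 was at 262, 262, 260 and 265 TPM in AsPC-1 with vehicle, roseoflavin, trametinib and the combination and at 292, 286, 290 and 278 TPM in PANC-1, with an estimate of -0.016 (SE 0.031, limma adjusted p 0.936). HSPE1 was at 301, 295, 270 and 292 TPM in AsPC-1 and at 293, 271, 296 and 262 TPM in PANC-1, with -0.052 (SE 0.053, limma adjusted p 0.860). In PANC-1 both libraries with roseoflavin were below both without it for HSPE1 and for HSPD1, and in AsPC-1 they overlapped. HSPB1, whose values are given above, had an estimate of -0.043 (SE 0.056, limma adjusted p 0.890).

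By line, the 10 genes were lower most regularly in PANC-1. Roseoflavin alone came with a lower level of 10 of 10 genes there (49.1% of all genes) and of 9 of 10 on top of trametinib (47.3% of all genes), with medians of -0.11 and -0.11 beside 0 and 0 over all genes. In AsPC-1 the same counts were 10 of 10 without trametinib (61.5% of all genes) and 5 of 10 on top of it (51.3%), with medians of -0.11 and -0.023 beside -0.046 and -0.0048. In PANC-1 9 of the 10 were lower in both matched comparisons (29.8% of all genes), and in AsPC-1 5 were (35.4%). Within PANC-1 limma gave 3 of the 10 genes at an unadjusted p under 0.05 (9.47% of all genes), namely HSPH1, HSP90AA1 and HSPE1, and within AsPC-1 it gave 1, HSPA8 (9.58%), with 0 in either line at the adjusted threshold (0% of all genes).

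These counts by line moved with the scaling, and the mitochondrial share of the TPM went up with roseoflavin alone in AsPC-1 (41.2% and 44.1%) and down in PANC-1 (25.6% and 23.7%). On TPM rescaled without mitochondrial-genome transcripts, 6 of the 10 genes had an unadjusted p under 0.05 within PANC-1 (HSPA8, HSPH1, HSP90AA1, DNAJB1, BAG3 and HSPE1, beside 10.2% of all genes) and 0 had within AsPC-1 (10.1%), again with 0 at the adjusted threshold. After quantile normalization the numbers were 5 in PANC-1 (9.88%) and 1 in AsPC-1 (9.28%). The AsPC-1 count of lower genes after roseoflavin alone was 7 on the rescaled TPM, beside 47.2% of all genes, and 7 after quantile normalization, beside 42.6%.

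The response did not differ between the lines past the threshold for any of the 10 genes. By limma 0 of them had an adjusted p under 0.05 for the difference, beside 0.0261% of all genes, and 0 had an unadjusted p under 0.05, beside 9.97%. On TPM rescaled without mitochondrial-genome transcripts 2 of them had, HSPE1 (-0.25, limma p 0.0084, adjusted p 0.354) and HSPH1 (-0.15, limma p 0.0446, adjusted p 0.467), beside 10.4% of all genes, and after quantile normalization 1 had, HSPE1, beside 10.1%. On the TPM as deposited the closest was HSPE1, with a PANC-1 response lower than the AsPC-1 response by a log2 difference of -0.19 (SE 0.076, limma p 0.0539, adjusted p 0.512, from 0.313 to 0.868 when single libraries were left out). For HSPH1 the difference was -0.090 (SE 0.060, limma adjusted p 0.667).

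The estimates for 1 nM trametinib had no common direction in these genes. They were below 0 for 5 of the 10 (41.0% of all genes) and above 0 for 5, with a median of -0.0018 beside 0.018 over all genes, and limma called 0 of them (0% of all genes called). The 1 gene with an unadjusted p under 0.05, beside 4.91% of all genes, was HSPB1, which protects cells from stress and binds actin filaments. In AsPC-1 HSPB1 was at 503 TPM with vehicle and 547 TPM with trametinib, and at 468 TPM with roseoflavin and 598 TPM with the combination. The PANC-1 values of HSPB1 were 372, 400, 350 and 370 TPM in the same order. It was higher in 4 of 4 matched comparisons, as were 9.66% of all genes, with an estimate of 0.16 (SE 0.056, limma p 0.0249, adjusted p 0.861). Its AsPC-1 combination library was the highest of all 8, and that comparison with the roseoflavin library was the only one after trametinib in which any of the 10 genes was higher by 25% or lower by 20% (13.5% of all genes in that comparison), and none was under either rescaling. For the difference in trametinib response between the lines, limma called 0 of the 10 genes (0% of all genes), and 0 had an unadjusted p under 0.05 (7.28% of all genes).

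Against the vehicle, the combination was lower for 10 of 10 genes in PANC-1 (45.9% of all genes) and for 8 of 10 in AsPC-1 (47.5% of all genes). These comparisons share the vehicle libraries with those of the single compounds. In PANC-1 the largest such difference was that of HSPH1, -13.6% from vehicle, and that of HSPA8 was -6.01%. In AsPC-1 the differences were -7.64% for HSPH1, -6.40% for HSPA8 and 18.9% for HSPB1.

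The wider chaperone network was followed through lists of related genes, in which limma called 0 genes for roseoflavin. HSF1 itself was at 41.4 to 46.2 TPM in AsPC-1 and 47.1 to 49.9 TPM in PANC-1, with an estimate of 0.0035 for roseoflavin (SE 0.049, limma adjusted p 0.993) and of -0.0022 on the rescaled TPM. HSF2, its paralog, was at 24.2 TPM with vehicle and 30.1 TPM with roseoflavin in PANC-1, and at 5.72 and 5.90 TPM in AsPC-1. With the libraries on trametinib included, the HSF2 estimate was 0.084 over both lines (limma adjusted p 0.870) and -0.10 within AsPC-1 (limma adjusted p 0.750). Its PANC-1 response lay above the AsPC-1 response by 0.37 (limma p 0.0220, adjusted p 0.435). Of the 7 genes in the list of HSF factors and their regulators, 3 were higher and 4 lower (median -0.0043, and 0.012 after quantile normalization). By limma 0 of them had an unadjusted p under 0.05 for roseoflavin over both lines, beside 7.10% of all genes.

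Some partners of HSP70 and HSP90 had lower estimates for roseoflavin than any of the 10 genes, and none of them passed the adjusted threshold. CHORDC1, an HSP90 co-chaperone, was at 10.4 TPM with vehicle, 9.0 TPM with roseoflavin, 10.8 TPM with trametinib and 8.67 TPM with the combination in AsPC-1, and at 20.3, 18.6, 21.3 and 18.1 TPM in PANC-1. Its estimate was -0.20 (SE 0.042, limma p 0.00241, adjusted p 0.599). HSPA4L, of the HSP110 family, had -0.23 (SE 0.052, limma p 0.00422, adjusted p 0.599), and DNAJA4, a J-domain protein, had -0.23 (SE 0.074, limma p 0.0195, adjusted p 0.660).

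As whole lists these groups were mixed. Of 14 genes of the HSP70 and HSP110 system 7 were lower (median 0.0050, and -0.00029 on the rescaled TPM). Of 9 J-domain co-chaperones 7 were lower (-0.047), and of 13 genes listed with HSP90 and its co-chaperones 7 were lower (-0.042). The list of 13 also held P4HA1, which is not an HSP90 co-chaperone, and its count and median include that gene. HSP90AB1, the constitutive HSP90 gene, had an estimate of 0.011 (SE 0.034, limma adjusted p 0.960), where its inducible partner HSP90AA1 had -0.093. After quantile normalization the estimate for HSP90AB1 was -0.042. Of 8 genes listed as small heat shock proteins other than HSPB1, 3 passed the filter. HSPB6 and HSPB8 averaged 0.66 and 0.85 TPM, and HSPB11 averaged 28.8 TPM. No median is given for so few genes.

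Over both lines, the other chaperones and proteases of mitochondria had estimates of the opposite sign. All 12 genes of that list had an estimate above 0 for roseoflavin, with a median of 0.077 beside -0.017 over all genes. By limma 3 had an unadjusted p under 0.05, beside 7.10% of all genes. Of the 12 estimates, 11 were above 0 on TPM rescaled without mitochondrial-genome transcripts and 12 after quantile normalization. The list was less uniform in AsPC-1, where 6 of the 12 genes were lower with roseoflavin alone (61.5% of all genes) and 4 on top of trametinib (51.3%). In PANC-1 these counts were 2 (49.1%) and 1 (47.3%). HSPA9, the HSP70 of mitochondria, was at 92.1 TPM with vehicle, 99.8 TPM with roseoflavin, 96.7 TPM with trametinib and 103 TPM with the combination in AsPC-1, and at 157, 173, 150 and 171 TPM in PANC-1. Its estimate was 0.13 (SE 0.036, limma p 0.0102, adjusted p 0.659). HSPD1 and HSPE1, which fold proteins in the same compartment, had estimates below 0 over both lines, as given above. Within AsPC-1 theirs were 0.014 and 0.042, and within PANC-1 -0.045 and -0.15.

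Among the remaining lists, 10 of 17 ER chaperones were lower with roseoflavin (median -0.034) and 7 of 31 proteasome subunits were (median 0.026), beside 57.8% of all genes. The 8 subunits of the cytosolic chaperonin TRiC had a median of 0.017, with 8 of 8 above 0 in AsPC-1 and 7 of 8 below 0 in PANC-1. Of all genes, 61.1% were below 0 within AsPC-1 and 50.2% within PANC-1. Of 14 other genes known as HSF1 targets 9 were lower (median -0.022), beside 57.8% of all genes. In AsPC-1, 11 of the 14 were lower with roseoflavin alone (median -0.12, beside 61.5% of all genes). On top of trametinib 6 were (median 0.027, beside 51.3%). In PANC-1 these counts were 6 (median 0.032, beside 49.1%) and 4 (median 0.078, beside 47.3%). In that list SQSTM1, an autophagy receptor that is also a target of NRF2, had an estimate of 0.23 (SE 0.069, limma p 0.0139, adjusted p 0.659), with 327 TPM with vehicle and 426 TPM with roseoflavin in PANC-1. Within AsPC-1 the SQSTM1 estimate was 0.084 (SE 0.048, limma p 0.140, adjusted p 0.652). Its PANC-1 response lay above the AsPC-1 response by 0.30 (SE 0.068, limma p 0.0065, adjusted p 0.348).

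**Figure D5:**
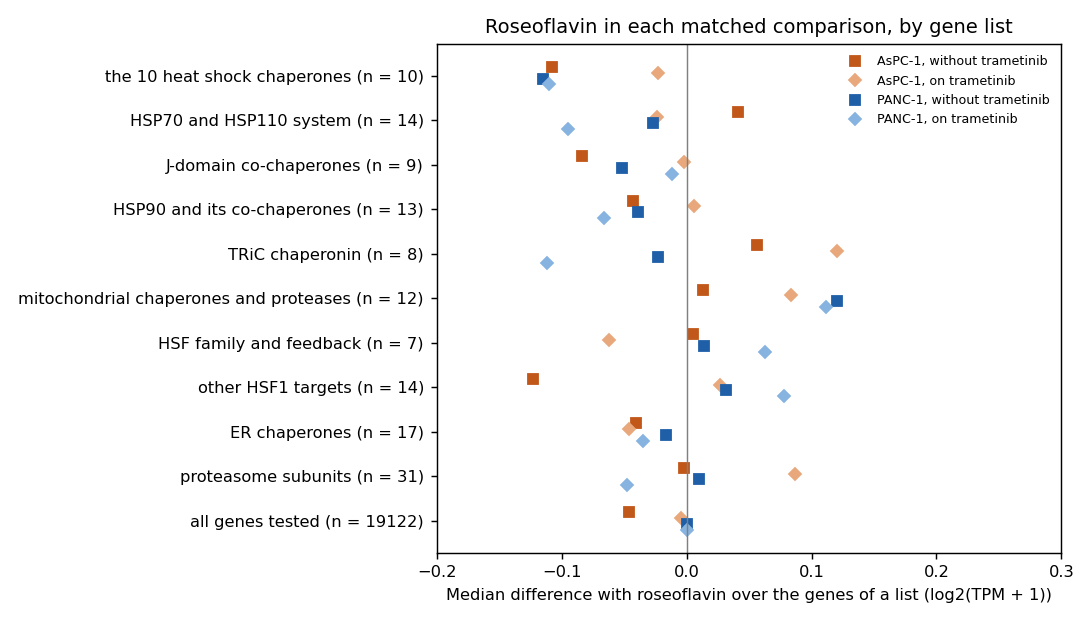
Median difference in log2(TPM + 1) with roseoflavin over the genes of each list, in the 4 matched comparisons (both lines, without trametinib as squares and on top of it as diamonds), with all 19122 genes in the bottom row. The 10 heat shock chaperones have medians between -0.023 and -0.11, and the list of mitochondrial chaperones and proteases has medians above 0 in all 4.

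The 10 genes varied together to different degrees within a line. With each gene centred on its line mean, Pearson's r with the mean of the other 9 over the 8 libraries was highest for DNAJB1 (0.89), HSP90AA1 (0.84), HSPA1A (0.83) and HSPH1 (0.82) and lowest for HSPB1 and HSPE1 (0.40 each). The libraries share their treatments and the common TPM total, so these values are a description. Of 8620 other named genes averaging 10 TPM or more, those most like the mean of the 10 were SAMD10 (r 0.98), SAFB2 (0.97) and NRAV (0.97). SAFB2 was at 23.8, 21.7, 24.3 and 23.5 TPM in AsPC-1 with vehicle, roseoflavin, trametinib and the combination and at 35.9, 32.2, 35.6 and 32.3 TPM in PANC-1.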

How the data were processed

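RNA from the spheroids was made into libraries with a stranded poly(A) mRNA kit, per the labels' protocols. The authors deposited 1 table of TPM per gene, per the file headers, with 1 column for each library. STAR 2.7.3a, HTSeq 2.0.2 and the build hg38 are named in the submitters' processing notes, and the annotation, strand setting and handling of shared reads are not given in the sources used here. Rows without an identifier (985926) were dropped.

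The 19122 genes that reached 1 TPM in 2 libraries were tested as log2(TPM + 1), a scale that understates changes of low genes. Models were fitted over all of them with limma 3.58.1 in R 4.3.3 (trend in the prior variance), with line, roseoflavin and trametinib as additive terms (4 residual degrees of freedom) or with 1 interaction added (3), with Benjamini-Hochberg adjustment over all of them. Lists are described by counts and medians, with no set test. Members, lists and tests were chosen with earlier results of these data known. Genes named outside the 10 were, per list, up to 3 with the smallest p among those averaging 5 TPM or more, and the 3 most alike in pattern. HSF1, HSF2, HSP90AB1, P4HA1, HSPE1-MOB4, the small heat shock protein genes and the cell markers were named after their values were seen. The models were tested on simulated data. Alternatives were other pseudocounts, filters, scalings and model terms, a block for matched pairs, and leaving out each library.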

Additional observations from a re-analysis of the deposited data

Results flagged for a closer look

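HSPA1B was lower with roseoflavin in both lines without trametinib and higher in both lines on top of it, so that every comparison of one kind went against every comparison of the other. The interaction was 0.26 on the log2 scale and did not pass (limma adjusted p 1.00, from 0.869 to 1.00 when single libraries were left out). Rescaled without mitochondrial-genome transcripts, HSPA1B on top of trametinib was at 74.7 TPM in both AsPC-1 libraries, without and with roseoflavin, so the AsPC-1 side of the pattern rests on almost no difference there. HSP90AA1 was higher with trametinib in both AsPC-1 comparisons and lower in both PANC-1 comparisons. The difference between the lines was -0.077 (SE 0.067, limma adjusted p 0.846), and none of the 4 differences exceeded 3.93% of the level it was set against. On TPM rescaled without mitochondrial-genome transcripts this opposition did not hold, since HSP90AA1 was at 571 with roseoflavin and 563 with the combination in AsPC-1.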

How the results depend on the processing

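No group had a replicate, so no replicate numbers could pair libraries. With each matched pair of libraries (same line and same other compound) as a block, an alternative added after the data had been seen, 0 genes were called for roseoflavin and 0 for trametinib, and 5 of the 10 genes were lower at an unadjusted p under 0.05 for roseoflavin, HSPA1A no longer being among them. The number of the 10 genes called was the same under every alternative for the effects of roseoflavin and trametinib and for the 3 interactions (0), and between 8 and 9 for the line difference. For the line difference, HSPA1B was at -0.054 and HSPD1 at -0.18 after quantile normalization, and HSPD1 was at -0.26 on TPM rescaled without mitochondrial-genome transcripts, where the common total no longer holds those transcripts. All other estimates of the 10 genes reported one by one kept their sign. Those of HSF1 and HSP90AB1 for roseoflavin did not (-0.0022 rescaled and -0.042 after quantile normalization). Lower genes at an unadjusted p under 0.05 for roseoflavin numbered 6, between 1 and 7 when single libraries were left out, and 0 with no term for line. After roseoflavin on top of trametinib in AsPC-1, 8 genes instead of 5 were lower after quantile normalization (46.5% of all genes), a count added after the data had been seen. Of the 10 genes, those higher by 25% or lower by 20% in AsPC-1 went from 1 to 0 under both rescalings, after roseoflavin alone and for the combination against roseoflavin. Over all genes, the line difference gave 16027 calls and 8388 where only the 9368 genes averaging 10 TPM or more were tested. The line difference in the roseoflavin response gave 5 calls, 8 with a pseudocount of 0.1, and 0 with no filter, under both rescalings, with all 3 interactions in 1 fit and without any 1 library (0 to 0). The one for trametinib gave 0 calls, 4 with a pseudocount of 0.1, 2 with no filter and 2 on rescaled TPM. The cause of these shifts was not tested. TPM keeps no depth, so counting error is unknown.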
